A study of Mus musculus with 8 samples.

Results

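The glucuronosyltransferases and sulfotransferases are the enzymes that attach glucuronic acid or sulfate to small molecules. Members were the genes with a transcript cluster on the array, the array's unit for a gene, whose single annotated symbol begins with Ugt1, Ugt2 or Ugt3 and a letter, or with Sult and a digit. This gave 31 genes out of 22180 with a single-symbol cluster, with 8 in the UGT2 family, 2 in UGT3, 21 sulfotransferases and 0 in UGT1. Each member had 1 such cluster, so no choice between clusters was needed. Each RNA sample was from the liver of a male mouse. There were 3 wild type (WT) and 5 Abhd15 KO samples, all of C57BL/6J background and all fed normal chow. The design text puts them at 14 weeks of age, although the sample labels give that as the longest time on the diet, and says they were fasted overnight and refed chow for 1 hour before the liver was taken. The labels do not say how Abhd15 was deleted or in which cells.

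Conjugation makes lipid-soluble compounds easier to export into bile and urine. UGT enzymes sit in the endoplasmic reticulum and use UDP-glucuronic acid, or other UDP-sugars in the UGT3 family, on bilirubin, steroids, bile acids and drugs. SULT enzymes are mostly cytosolic and take sulfate from PAPS to phenols, catecholamines, thyroid hormones, steroids and bile acids. Many of these genes are known to respond to the receptors PXR, CAR and AhR, and several Sult2a and Sult3a genes are known as female-biased in mouse liver.

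Across the 8 arrays the median log2 value lay between 2.99 and 3.05. KO arrays 1 and 2 stood apart from the others on the first principal component of the single-symbol clusters (22.1% of the variance, scores of 35.7 and 32.1 against 0.661 for the next), and KO array 4 on the second (15.8%, 41.8 against 4.16). Abhd15 averaged 5.64 ± 0.18 over the 3 WT arrays (SD) and 5.12 ± 0.08 over the 5 KO arrays (SD), with no overlap (exact permutation p = 0.0179, the smallest the design allows). Its difference, KO minus WT, was -0.52 (SE 0.13), with a limma adjusted p of 0.795. All 8 hepatocyte markers had a mean above 5, from 8.87 for Serpina1a to 13.1 for Alb. Their average was lowest in KO array 4, at 11.59, against 11.73 to 11.78 in the other 7. Averages of Kupffer cell markers ran from 5.67 to 6.23 in WT and from 5.45 to 6.68 in KO, those of cholangiocyte markers from 3.93 to 4.14 and from 3.92 to 4.17, and those of gallbladder and intestine markers from 3.57 to 3.75 and from 3.57 to 4.12. Within the last list Tff3, a goblet cell peptide, read 8.09 and 7.65 in KO arrays 1 and 2 against at most 5.56 elsewhere (difference 2.27, SE 0.75). The other markers of that list did not share this. Muc2, Cdx1 and Alpi differed by 0.04, 0.09 and 0.30. Cdx2, Vil1, Lct and Fabp2 differed by -0.16, -0.33, -0.36 and -0.42. Lyve1, an endothelial marker, was higher in every KO than in every WT liver (difference 0.65, SE 0.16). The other sinusoidal endothelium markers did not share this: Stab2 differed by 0.01, Kdr and Oit3 by -0.05 each and Clec4g by -0.26. Averages of that list ran from 7.44 to 7.55 in WT and from 7.51 to 7.60 in KO. The part of Tff3, Lyve1 and the cell types in the members' values was not tested. Averages of kidney, olfactory epithelium and exocrine pancreas markers stayed between 2.23 and 2.74 in every array, with no marker at a mean of 5. Adipocyte averages ran from 2.78 to 3.05 in WT and from 2.57 to 2.84 in KO. Stellate cell averages ran from 6.07 to 6.16 and from 5.96 to 6.25. Among these, Lrat was lower in every KO than in every WT liver (-0.34, SE 0.14). Dcn differed by -0.10, and Reln, Des, Pdgfrb and Col1a1 by 0.03, 0.04, 0.14 and 0.22. In a piece of liver, fewer cells of a type and less RNA per cell cannot be told apart.

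The members lie in a few tandem runs in the RefSeq gene order of GRCm38.p6. On chromosome 5, 11 members follow each other with no other protein-coding gene between them but Ugt2a1 and Ugt2a2, beginning with Ugt2b34 and ending with Sult1e1. On chromosome 7, 8 Sult2a genes form another run, and the Ugt3a, Sult3a and Sult1c pairs lie side by side on chromosomes 15, 10 and 17. RefSeq promoter windows, 250 bases before and 50 bases after the annotated start, were found for 26 of the 31 members (29 windows). The windows of 5 chromosome 5 members are shown because the values described most closely are theirs: Ugt2b1 and Ugt2b36 were both highest in the same livers, Ugt2b37 and Ugt2b38 had the widest errors, and Sult1d1 had the smallest p. Capitals mark 2 six-base motifs searched on both strands, GTTAAT (a half-site of the liver factor HNF1) and AGGTCA (a nuclear receptor half-site). Bases run 5′ to 3′ along the gene.
Ugt2b1 (chr5:86926454-86926753, minus strand): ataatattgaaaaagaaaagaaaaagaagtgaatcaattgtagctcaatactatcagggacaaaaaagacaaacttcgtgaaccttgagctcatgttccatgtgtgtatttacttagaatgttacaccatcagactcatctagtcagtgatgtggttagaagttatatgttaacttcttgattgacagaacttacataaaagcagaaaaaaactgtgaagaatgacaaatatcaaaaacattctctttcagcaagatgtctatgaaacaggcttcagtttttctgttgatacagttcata
Ugt2b36 (chr5:87092506-87092805, minus strand): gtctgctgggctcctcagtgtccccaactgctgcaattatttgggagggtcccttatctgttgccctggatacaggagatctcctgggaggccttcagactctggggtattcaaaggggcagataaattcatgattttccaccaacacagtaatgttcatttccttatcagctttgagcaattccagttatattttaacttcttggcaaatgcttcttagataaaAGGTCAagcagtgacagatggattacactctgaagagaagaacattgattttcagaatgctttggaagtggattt
Ugt2b37 (chr5:87254739-87255038, minus strand): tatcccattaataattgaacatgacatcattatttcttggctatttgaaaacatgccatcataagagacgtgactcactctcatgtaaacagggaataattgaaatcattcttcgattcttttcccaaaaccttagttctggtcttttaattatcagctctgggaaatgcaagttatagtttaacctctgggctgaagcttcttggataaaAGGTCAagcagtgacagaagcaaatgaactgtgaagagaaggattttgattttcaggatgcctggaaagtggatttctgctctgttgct
Ugt2b38 (chr5:87424154-87424453, minus strand): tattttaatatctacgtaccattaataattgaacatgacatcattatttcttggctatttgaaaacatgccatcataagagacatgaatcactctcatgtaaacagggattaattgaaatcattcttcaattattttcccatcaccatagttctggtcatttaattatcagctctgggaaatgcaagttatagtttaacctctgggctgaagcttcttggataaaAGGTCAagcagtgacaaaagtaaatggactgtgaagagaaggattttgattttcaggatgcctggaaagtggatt
Sult1d1 (chr5:87568957-87569256, minus strand): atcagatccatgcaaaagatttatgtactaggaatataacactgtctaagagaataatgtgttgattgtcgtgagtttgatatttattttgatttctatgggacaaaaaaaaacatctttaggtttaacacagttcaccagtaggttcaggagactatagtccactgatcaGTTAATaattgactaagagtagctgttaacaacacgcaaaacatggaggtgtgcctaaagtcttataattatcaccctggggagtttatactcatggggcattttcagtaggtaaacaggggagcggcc

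The windows of Ugt2b37 and Ugt2b38 were the most alike of those in the chromosome 5 run, identical at 86.9% of alignment positions, and those of Ugt2b5 and Ugt2b38 matched at 84.2%. Probe and transcript sequences were not examined, so whether clusters of such paralogues share probes was not tested, and their values carry that uncertainty. AGGTCA was present in the windows of 5 of 7 Ugt2b genes, and in Ugt2b36, Ugt2b37 and Ugt2b38 it began 25, 39 and 25 bases before the start. Of all 32851 RefSeq windows, 16.3% held AGGTCA, against 8 of the members' 29. GTTAAT was present in 9 of the 29 windows (7.1% of all windows), among them Sult1d1, where it began 79 bases before the start, and 4 of the 5 Sult2a genes with a window. None of the 7 Ugt2b windows held GTTAAT. The core GCGTG of the dioxin response element was present in 4 of 29 windows (32.4% of all), TGACNNNGC of the antioxidant response element in 0 of 29 (12.4% of all), and TATAAA in 9 of 29 (13.6% of all). Read on the other strand, AGGTCA is TGACCT, which TGACNNNGC can overlap. A match describes letters, not a bound site.

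No member passed an adjusted p of 0.05 between KO and WT livers. With limma, 0 of 23521 clusters passed (0% of all), with 1429 at an unadjusted p under 0.05, and the smallest adjusted p among members was 0.795, for Sult1d1. Of the 31 members, 18 were higher and 13 lower in KO, and the median log2 difference (KO minus WT, as in all differences here) was 0.07 against -0.002 over all clusters, of which 49.6% were higher and 50.4% lower. At an unadjusted p under 0.05 there were 3 members (9.68%), against 6.08% of all clusters. They were Sult1d1 and Sult1c1, both higher in KO (2.75% of all clusters were called in that direction), and Sult2a3, lower (3.32% of all clusters). Without WT array 2 the count was 0. Ugt2b1 was the only member whose groups did not overlap, 1 of 31 (3.23%) against 4.43% of all clusters, 1.99% with KO as the higher group. For 11 of the 13 members with a mean of at least 5, the 95% interval of the difference lay between -1 and 1, so that a doubling in either direction of the log2 value's linear scale was outside it. The other two were Ugt3a1 and Sult1d1. The intervals of dimmer members say little about the transcript, since signal over background is not established for most of them. Whether a mean of at least 5 marks signal over background was not tested, and Abhd15 averaged 5.12 in the KO livers.

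**Figure D1:**
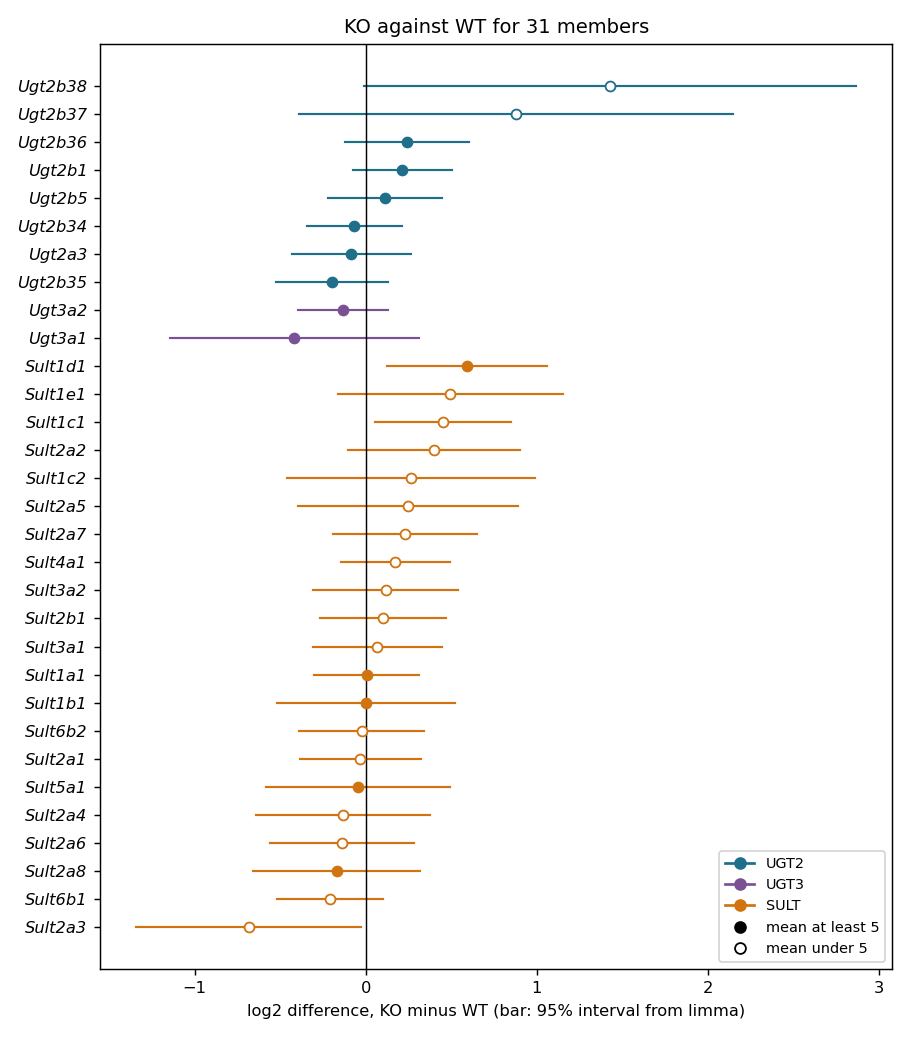
Log2 difference between 5 KO and 3 WT livers for each of the 31 members (horizontal axis), grouped as UGT2, UGT3 and SULT; points are limma estimates, bars their 95% intervals, and open points members with a mean log2 value under 5. Only the bars of Sult1d1, Sult1c1 and Sult2a3 leave out 0, and none of the 3 passed after adjustment over all clusters.

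By family, 5 of 8 UGT2 members were higher and 3 lower, with a median difference of 0.16. Both UGT3 members were lower (median -0.28). Of the sulfotransferases 13 were higher and 8 lower (median 0.07). Among the 6 UGT2 members with a mean of at least 5, 3 were higher and 3 lower, with a median of 0.02. A mean of 5 served as a line between brighter and dimmer clusters, and 13 members lay above it. Of these 13, 6 were higher and 7 lower (median -0.05, against -0.04 over all 7699 clusters as bright, of which 40.1% were higher). Over the 11 members of the chromosome 5 run, 8 were higher and 3 lower, with a median of 0.21. No family was compared with another by a test.

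**Figure D2:**
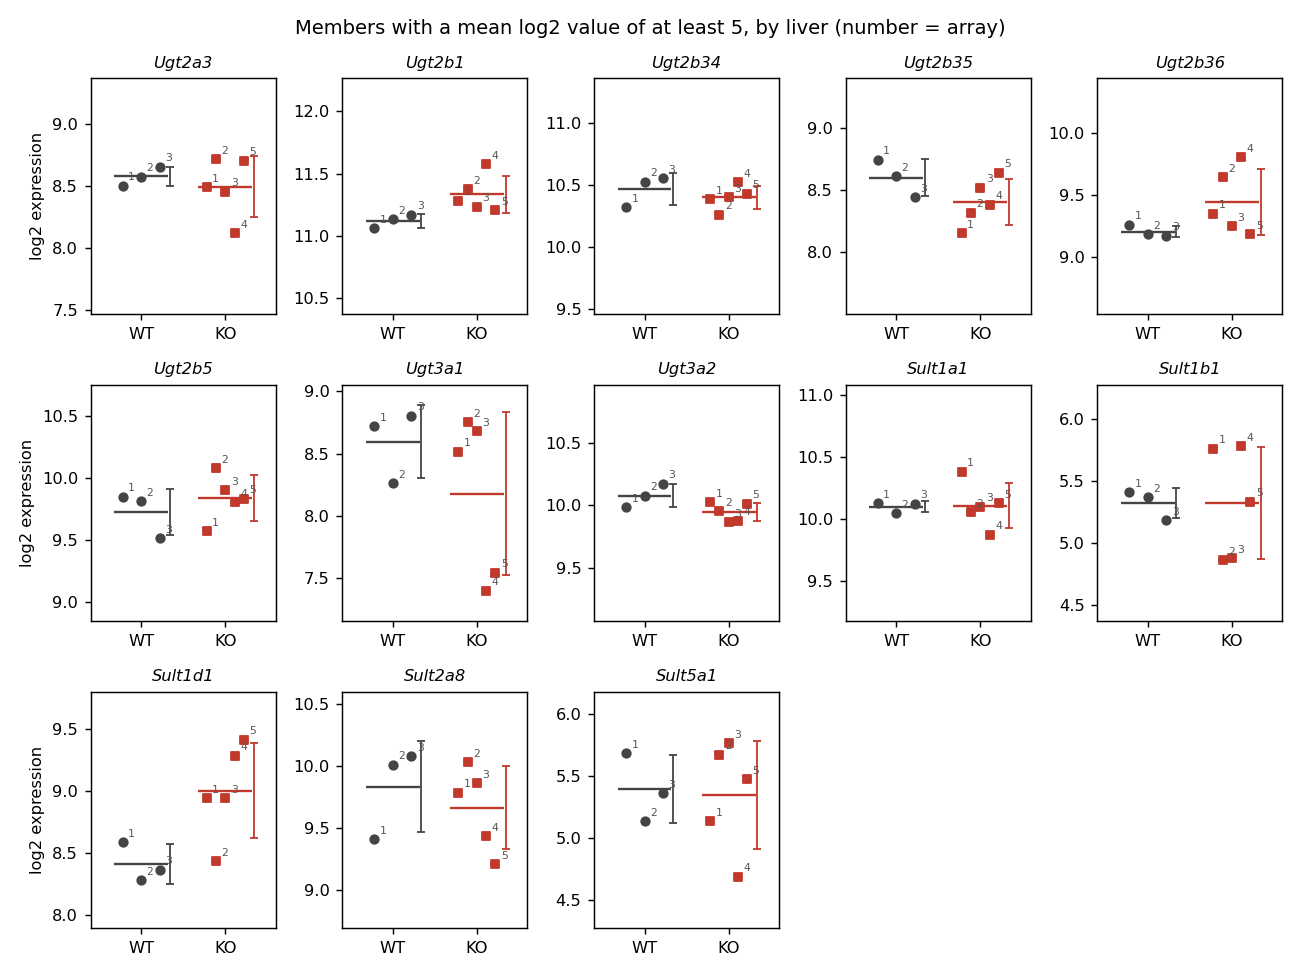
Log2 expression of the 13 members with a mean of at least 5, in WT (circles) and KO (squares) livers; each point is 1 array with its number, lines are group means and error bars the SD (n = 3 and n = 5), and all panels span the same log2 range. Ugt2b1 is the only panel without overlap, and Ugt3a1 shows KO arrays 4 and 5 apart from the other 6.

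Ugt2b1, a steroid and xenobiotic glucuronosyltransferase, read 11.06, 11.13 and 11.17 in the WT arrays and 11.28, 11.37, 11.23, 11.57 and 11.21 in KO arrays 1 to 5. Every KO liver lay above every WT liver, but KO array 5 only narrowly exceeded WT array 3. The difference was 0.21 (SE 0.13), a 1.16-fold change, with an adjusted p of 0.867 and an exact permutation p of 0.0536.

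Ugt2b36 read 9.26, 9.19 and 9.17 in WT and 9.35, 9.65, 9.25, 9.81 and 9.19 in KO. KO arrays 2 and 4 were high and the other 3 KO livers lay at or near the WT values. Its difference was 0.24 (SE 0.16, adjusted p = 0.874, exact permutation p = 0.196), and 0.15 without KO array 4. The same 2 livers were the highest for Ugt2b1, and the pair correlated over the 8 arrays with a Pearson r of 0.91 (exact permutation p = 0.00352) and a Spearman rho of 0.72 (exact permutation p = 0.0521). Adjusted over the 79 pairs computed, these p-values were 0.139 and 0.699. Without the 2 arrays farthest from the Ugt2b1 median, KO array 4 and WT array 1, r was 0.94. That omission kept KO array 2, the other high liver, and r without both high livers was not computed.

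Ugt2b35 was lower in the KO mean. It read 8.75, 8.61 and 8.45 in WT and 8.16, 8.32, 8.52, 8.38 and 8.64 in KO, a difference of -0.20 (SE 0.15, adjusted p = 0.888, exact permutation p = 0.179). The groups overlapped, with KO arrays 3 and 5 inside the WT range, and the difference was -0.12 without WT array 1 and -0.09 without KO arrays 1 and 2. Ugt2b34 read 10.32, 10.53 and 10.56 in WT and 10.39, 10.26, 10.40, 10.52 and 10.43 in KO, with a difference of -0.07 (SE 0.13, 95% interval -0.34 to 0.21). Ugt2b5 read 9.85, 9.81 and 9.51 in WT and 9.57, 10.08, 9.90, 9.81 and 9.83 in KO, a difference of 0.11 (SE 0.15, interval -0.22 to 0.44). For both genes the groups overlapped over most of their range. Ugt2a3, which can glucuronidate bile acids, read 8.51, 8.58 and 8.66 in WT and 8.49, 8.72, 8.46, 8.12 and 8.71 in KO. The lowest value was that of KO array 4, which also had the lowest average of hepatocyte markers, whose part in this was not tested. The difference of -0.08 (SE 0.16) became 0.01 without it.

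Ugt2b38 and Ugt2b37 had the largest differences among the 31, and also the widest errors, at dim levels. Ugt2b38 read 4.76, 2.04 and 4.42 in WT and 4.19, 5.75, 5.96, 5.89 and 4.05 in KO. WT array 2 was far below all others, KO arrays 2, 3 and 4 lay above all WT arrays, and KO arrays 1 and 5 lay inside the WT range. The difference was 1.43 (SE 0.65, interval -0.01 to 2.87, adjusted p = 0.827, exact permutation p = 0.143), or 0.58 without WT array 2 and 1.94 without WT array 1. Ugt2b37 read 1.58, 2.89 and 2.28 in WT and 2.08, 4.22, 4.54, 2.41 and 2.39 in KO. Only KO arrays 2 and 3 exceeded the WT range, and the difference was 0.88 (SE 0.57, adjusted p = 0.872, exact permutation p = 0.268). It was 0.52 without KO array 3, 0.54 without WT array 1 and 1.198 without WT array 2. In 6 of the 8 arrays Ugt2b37 lay below that array set's lowest median of 2.99, so no signal over background is established there. These 2 members were given by array after their values were seen.

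**Figure D3:**
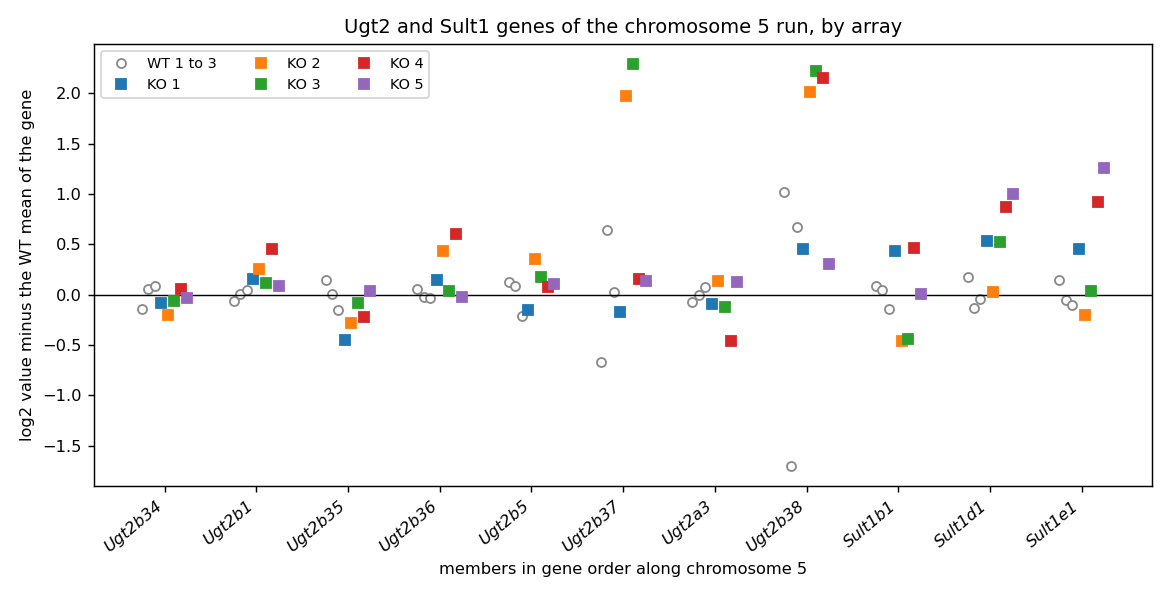
Log2 value minus the gene's WT mean (vertical axis) for the 11 members of the chromosome 5 run in gene order; open circles are the 3 WT arrays and squares the KO arrays, 1 colour each. The points spread widest for Ugt2b37 and Ugt2b38, and KO arrays 4 and 5 lie highest for Sult1d1 and Sult1e1.

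The UGT3 pair, which use UDP-sugars other than UDP-glucuronic acid, were lower in the KO mean without passing the test. Ugt3a1 read 8.72, 8.26 and 8.80 in WT and 8.52, 8.75, 8.68, 7.40 and 7.54 in KO. KO arrays 4 and 5 alone were low, and KO arrays 1 to 3 lay inside the WT range. The difference was -0.42 (SE 0.33, adjusted p = 0.892, exact permutation p = 0.339), and -0.22 without KO array 4. Ugt3a2 read 9.99, 10.08 and 10.17 in WT and 10.03, 9.96, 9.86, 9.88 and 10.01 in KO. These values overlapped through KO arrays 1 and 5, and the difference was -0.13 (SE 0.12, adjusted p = 0.896, exact permutation p = 0.0893). KO arrays 4 and 5, the low ones for Ugt3a1, read 9.88 and 10.01 for its neighbour Ugt3a2, within the range of the other KO livers.

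All 6 Sult1 genes, which act mainly on phenols, catecholamines, thyroid hormones and estrogens, had a positive difference, from 0.002 for Sult1b1 to 0.59 for Sult1d1. Of the 6, 3 had means of 3.95 or below. Sult1a1 and Sult1b1 changed sign in 2 and 4 of the omissions of 1 array, and Sult1c2 did without KO arrays 1 and 2. Of all clusters, 49.6% had a positive difference. Sult1d1, known for sulfating dopamine and other amines in the mouse, read 8.59, 8.28 and 8.36 in WT and 8.94, 8.43, 8.94, 9.28 and 9.41 in KO. KO arrays 1, 3, 4 and 5 lay above all WT arrays, and KO array 2 lay between WT arrays 1 and 3. The difference was 0.59 (SE 0.21), or 1.51-fold, with an unadjusted p of 0.0176, an adjusted p of 0.795 and an exact permutation p of 0.0714. Leaving out 1 array at a time gave differences from 0.49 (without KO array 5) to 0.73 (without KO array 2). The unadjusted limma p was no longer under 0.05 without WT array 2 or without WT array 3.

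Sult1e1, the estrogen sulfotransferase, is the next member along the run. It was dim and read 3.37, 3.18 and 3.12 in WT and 3.68, 3.03, 3.26, 4.15 and 4.49 in KO, a difference of 0.50 (SE 0.30, adjusted p = 0.861, exact permutation p = 0.268), and 0.30 without KO array 5. KO arrays 4 and 5 were the 2 highest, as for Sult1d1, and KO array 2 was the lowest of all 8. This pair was singled out after its values were seen, a choice that the adjustment over 79 pairs does not cover. Its Pearson r was 0.91 (exact permutation p = 0.00161, adjusted p = 0.127 over 79 pairs) and its Spearman rho 0.88 (exact permutation p = 0.00724, adjusted p = 0.572). Without KO arrays 4 and 5, r was 0.72. The remaining 78 pairs were all those among the 13 members with a mean of at least 5, and 0 of the 79 passed after adjustment, with 5 at an unadjusted Pearson p under 0.05.

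**Figure D4:**
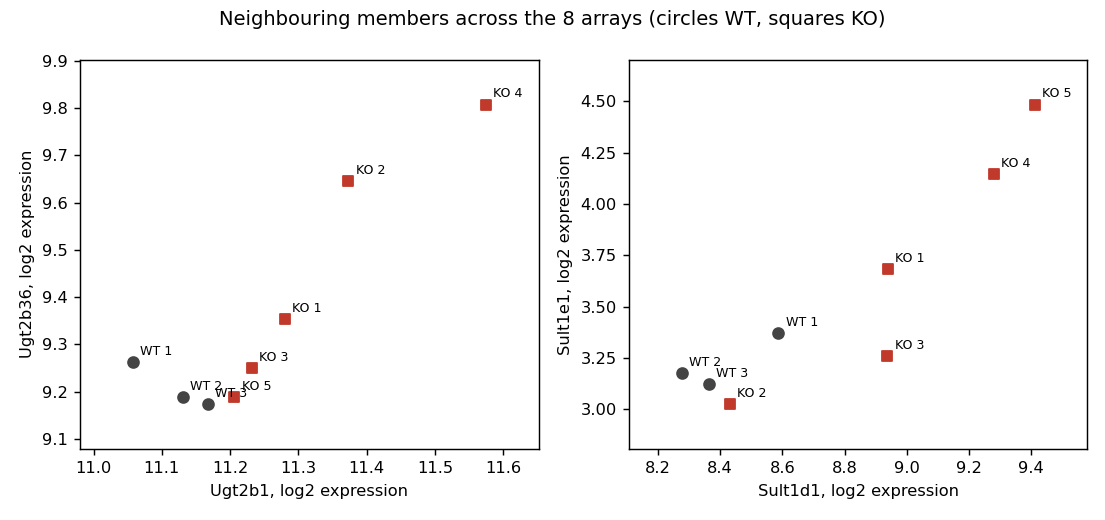
Log2 expression of Ugt2b36 against Ugt2b1 (left) and of Sult1e1 against Sult1d1 (right) in each liver; circles are WT and squares KO, 1 point per array. KO arrays 4 and 2 are highest in the left panel and KO arrays 5 and 4 in the right one.

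Sult1b1, which acts on thyroid hormones and phenols, read 5.41, 5.37 and 5.18 in WT and 5.76, 4.86, 4.88, 5.78 and 5.33 in KO. Its KO values lay on both sides of the WT range, and the difference was 0.002 (SE 0.23, interval -0.52 to 0.52). Sult1a1, the main phenol sulfotransferase of liver, read 10.13, 10.05 and 10.13 in WT and 10.38, 10.06, 10.10, 9.88 and 10.13 in KO. Its difference was 0.01 (SE 0.14, interval -0.30 to 0.31), with the highest and the lowest array both in the KO group. Sult1c1 and Sult1c2 form a pair on chromosome 17 and were dim. Sult1c1 lay between 1.37 and 1.90 in WT and between 1.82 and 2.44 in KO, a difference of 0.45 (SE 0.18, unadjusted p = 0.0303, adjusted p = 0.795; 0.34 without WT array 2, unadjusted p = 0.13) at levels that do not establish signal over background. Sult1c2, at a mean of 3.95, had a difference of 0.27 (SE 0.33). It ranged from 0.02 without WT array 3 to 0.64 without WT array 2, and was -0.04 without KO arrays 1 and 2.

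Sult2a genes encode hydroxysteroid and bile acid sulfotransferases. Of the 8, 3 were higher and 5 lower, with a median difference of -0.08, and 7 had means of 2.45 or below in these male livers. The 8th, Sult2a8, was the 1 with a mean of at least 5 and is known as a bile acid sulfotransferase of mouse liver. It read 9.41, 10.01 and 10.08 in WT and 9.79, 10.03, 9.86, 9.44 and 9.21 in KO. The low livers were WT array 1 and KO arrays 4 and 5, so that the groups overlapped, and the difference was -0.17 (SE 0.22, adjusted p = 0.932, exact permutation p = 0.518). Leaving out WT array 1 moved it to -0.38, and leaving out WT array 3 to -0.04. Sult2a3 read 2.08, 3.58 and 2.57 in WT and between 1.76 and 2.46 in KO. WT array 2 stood high, and the difference of -0.68 (SE 0.30, unadjusted p = 0.0427, adjusted p = 0.817) was -0.26 without it. The differences of the other 6 dim Sult2a genes were 0.40 (SE 0.23) for Sult2a2 at a mean of 2.03, 0.25 (SE 0.29) for Sult2a5 at 2.45, 0.23 (SE 0.19) for Sult2a7 at 1.496, -0.03 (SE 0.16) for Sult2a1 at 1.99, -0.13 (SE 0.23) for Sult2a4 at 2.09 and -0.14 (SE 0.19) for Sult2a6 at 1.69. Near-identical Sult2a copies may not be separated by their probes.

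The remaining 7 sulfotransferases did not pass the test, adjusted or unadjusted. Sult5a1, at a mean of 5.37, read 5.68, 5.14 and 5.36 in WT and 5.14, 5.67, 5.76, 4.69 and 5.48 in KO, a difference of -0.05 (SE 0.24, interval -0.58 to 0.49). The lowest array was again KO array 4. Sult2b1, the cholesterol sulfotransferase known from skin, had a difference of 0.10 (SE 0.17) at a mean of 2.12, and Sult4a1, known from brain, one of 0.17 (SE 0.14) at 1.98. Sult3a1 and Sult3a2 had differences of 0.07 (SE 0.17) and 0.12 (SE 0.19) at means of 1.69 and 1.55. Sult6b1 and Sult6b2 had differences of -0.21 (SE 0.14) and -0.02 (SE 0.16) at means of 2.14 and 1.83. These 6 means lay below the array medians, so no signal over background is established.

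The UGT1 genes share their last exons and differ in the first, and no single-symbol cluster stood for any of them. A cluster listed with 8 Ugt1a symbols averaged 6.72 ± 0.13 over the 3 WT arrays (SD) and 6.64 ± 0.09 over the 5 KO arrays. Another listed with 5 of these symbols averaged 7.12 ± 0.25 and 6.98 ± 0.16. Their differences were -0.08 (SE 0.13) and -0.14 (SE 0.16), both with overlap between the groups, and no gene is named from them. A cluster listed with Ugt2a1 and Ugt2a2 was dim, at a mean of 1.88, with a difference of -0.12 (SE 0.19).

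Genes listed for co-substrate supply and steps around it were measured in 12 of 13 cases, with 3 higher and 9 lower (median -0.16), and 0 passed after adjustment. Of the 12, 11 had a mean of at least 5, and 40.1% of all clusters as bright were higher. Papss2, which makes PAPS in liver, read 10.02, 10.33 and 10.18 in WT and 10.59, 10.49, 10.62, 10.43 and 10.28 in KO. The groups overlapped through KO array 5, and the difference was 0.31 (SE 0.14, unadjusted p = 0.0462, adjusted p = 0.82). Papss1, its paralogue, had a difference of -0.23 (SE 0.14), and Ugdh, which makes UDP-glucuronic acid, one of -0.17 (SE 0.13). Of 5 measured genes that reverse conjugation, 2 were higher and 3 lower (median -0.03), with 0 at an unadjusted p under 0.05.

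Of 14 measured regulators of conjugation genes, 8 were higher and 6 lower (median 0.03), and 0 passed. Foxa2, a hepatocyte transcription factor, had a difference of -0.47 (SE 0.17, unadjusted p = 0.0203, adjusted p = 0.795). Nr1i2 (PXR), Nr1i3 (CAR), Ahr and Nfe2l2 (NRF2) had differences of 0.07 (SE 0.14), -0.37 (SE 0.24), -0.28 (SE 0.21) and 0.18 (SE 0.12). For Nr1i3, KO arrays 1 and 2 alone were low, at 7.79 and 8.09 against 8.73 to 8.88 in the other 6. For Nfe2l2 every KO liver lay above every WT liver (exact permutation p = 0.0179), with an adjusted p of 0.871. It was the only 1 of the 14 without overlap (7.14%), against 4.43% of all clusters, 1.99% with KO as the higher group.

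Of 7 measured reference targets of these receptors, 3 were higher and 4 lower (median -0.05). Cyp4a14, a PPARA target, had a difference of -0.44 (SE 0.14, unadjusted p = 0.0111, adjusted p = 0.795), with every KO liver below every WT liver. It was the only 1 of the 7 without overlap (14.3%), against 4.43% of all clusters. Cyp3a11, a PXR target, had a difference of 0.14 (SE 0.12), and Cyp1a2, an AhR target, one of -0.30 (SE 0.15). Cyp2b10, a CAR target, read 8.12, 6.84 and 5.18 in WT and 5.27, 5.34, 5.92, 8.11 and 8.66 in KO, a difference of -0.05 (SE 0.87). Its 3 high livers, WT array 1 and KO arrays 4 and 5, were the 3 lowest livers for Sult2a8. The same livers held the highest WT value and the 2 highest KO values of Sult1d1 and Sult1e1, and KO arrays 4 and 5 the 2 lowest values of Ugt3a1. Across the groups the order did not hold for Sult1d1 and Sult1e1. KO array 1, with Cyp2b10 at 5.27, read 8.94 and 3.68 for them, above WT array 1 at 8.59 and 3.37. This pattern was noticed after the values were seen. Of the pairs of members in it, Sult1d1 and Sult2a8 had a Pearson r of -0.78 (exact permutation p = 0.0318, adjusted p = 0.503) and -0.41 without KO arrays 4 and 5. For Sult1d1 and Ugt3a1 r was -0.75 (exact permutation p = 0.0292, adjusted p = 0.503) and 0.12 without the same arrays, so it rests on them. Sult2a8 and Ugt3a1 had an r of 0.68 (exact permutation p = 0.0688, adjusted p = 0.61). For this pair, r without KO arrays 4 and 5, low for both genes, was not computed. Spearman rho was -0.79, -0.62 and 0.64 for the 3 pairs (exact permutation p = 0.0279, 0.115 and 0.0962, each 0.699 adjusted). The relation of Cyp2b10 to the members was not tested.

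Transporters that export conjugates or take up organic anions were measured in 9 of 9 cases, with 3 higher and 6 lower (median -0.14). Of the 9, 8 had a mean of at least 5, and 40.1% of all clusters as bright were higher. Slco1a4, an organic anion transporter, had a difference of 0.43 (SE 0.14, unadjusted p = 0.00931, adjusted p = 0.795) with every KO liver above every WT liver. Abcg2, an efflux pump for sulfate conjugates, lay lower in every KO than in every WT liver (-0.20, SE 0.11, adjusted p = 0.853, exact permutation p = 0.0179), and is named outside the naming rule, after its values were seen. Groups did not overlap for 2 of the 9 transporters (22.2%), against 4.43% of all clusters, and the list was not tested. Of 9 measured genes of methyl, acetyl and amino acid conjugation, 4 were higher and 5 lower (median -0.001), with 0 at an unadjusted p under 0.05. Of 12 measured sex-biased liver genes, 4 were higher and 8 lower (median -0.15). The list mixes genes known as female-biased and male-biased, so these counts give no direction of sex bias. Of the 12, 5 had means under 5. At an unadjusted p under 0.05 were 2 of the 12 (16.7%), against 6.08% of all clusters. They were Acot3, at -1.50 (SE 0.26, adjusted p = 0.376), and Cyp7b1, an oxysterol hydroxylase, at 0.48 (SE 0.21, adjusted p = 0.82). Acot3, lower in every KO than in every WT liver, was the only 1 of the 12 without overlap (8.33%), against 4.43% of all clusters.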

How the data were processed

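Each of 8 livers was hybridised to 1 Affymetrix Mouse Gene 2.0 ST array, from 200 ng of total RNA per the labels' protocols. The deposited table holds log2 expression values for 41345 transcript clusters; the log2 scale was inferred from their range, 0.409 to 13.27. RMA and oligo are named in the submitters' processing notes, while the design text names Expression Console; the sources used here do not say which made the values or with what settings. RMA shrinks differences of dim clusters. Slides and scan dates are not among the labels, which leaves batches untested.

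Groups came from the sample titles. Of the clusters, 23521 have 1 gene symbol, 1814 several and 16010 are unnamed here. All 31 members matched an Entrez gene in RefSeq (GRCm38.p6); the deposited values name no build. KO was compared with WT by limma 3.58.1 in R 4.3.3 (lmFit, eBayes, no covariates), two-sided. Adjustment was by Benjamini-Hochberg at 0.05 over all 23521 single-symbol clusters. Fold sizes are on the deposited log2 scale. Exact permutation tests were two-sided over the 56 splits of the arrays. Animals are not identified in the labels, and the p-values rest on sample-to-sample spread, which may be technical. Alternatives were other scalings, filters and eBayes settings, a replicate block, and leaving out arrays. Promoter windows were aligned with Biopython 1.88 (global, match 1, mismatch -1, gap opening -3, extension -0.5). Members and lists were chosen with earlier results of these data known. All members are named; arrays are given one by one for those with a mean of at least 5 among the 12 smallest p or the 6 highest means, and for the others shown by array because of their values.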

Additional observations from a re-analysis of the deposited data

How the results depend on the processing

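The number of arrays limits every value here, and 18 of the 31 members had means under 5. Over the alternatives run, no member passed an adjusted p of 0.05 (the smallest was 0.526), and 20 of 31 kept the sign of their difference in all of them. The count of all clusters that passed, 0, became 1 among clusters with a mean of at least 5, 3 among all deposited clusters, 3 with trend and robust eBayes and 1 with the replicate block, and stayed 0 in each omission of 1 array (range 0 to 0). The count of members at an unadjusted p under 0.05, 3, became 1 among clusters with a mean of at least 5 and ranged from 0 to 4 in single omissions. The members' median difference became -0.0469 with those of mean at least 5 only and 0.0107 without KO arrays 1 and 2 (0.0133 to 0.12 in single omissions), and the UGT2 median 0.0233 with mean at least 5 only; fewer members enter there. Without KO arrays 1 and 2, the differences of Sult1a1, Sult1c2 and Sult2a1 were -0.0663, -0.0413 and 0.005, and quantile normalization gave 0.00748 for Sult5a1; the cause was not tested.

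Replicate numbers are shared between the groups, but nothing says that they pair livers, and deviations of same-numbered arrays correlated at -0.05, 0.02 and 0.02. Of 3 WT arrays, 1 correlated best with its own number. The replicate block leaves 2 residual degrees of freedom, and KO arrays 4 and 5 have no WT array of their number. They therefore do not enter its difference, which compares KO arrays 1 to 3 with the 3 WT arrays. With the block, signs turned for Sult1b1 (-0.15), Sult2a8 (0.0587), Sult3a1 (-0.0647), Sult5a1 (0.13), Sult6b2 (0.11) and Ugt3a1 (0.0547). The 3 members at an unadjusted p under 0.05 were Sult2a3 (-0.75), Sult1c2 (0.60) and Ugt2b37 (1.36). Sult1d1 (0.36) and Sult1c1 (0.32) were not among them, and Sult1e1 was at 0.098. In single omissions the difference ranged from -0.0612 to 0.0653 for Sult1a1, -0.11 to 0.12 for Sult1b1, -0.13 to 0.0598 for Sult2a1, -0.44 to 0.16 for Sult2a4, -0.0226 to 0.21 for Sult3a1, -0.18 to 0.12 for Sult5a1, -0.10 to 0.11 for Sult6b2 and -0.14 to 0.0115 for Ugt2a3. The other 23 kept their sign in single omissions.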
